A study of Mus musculus with 8 samples.

Results

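Laminins are the cross-shaped proteins on which basement membranes are built. Each is a heterotrimer of an alpha, a beta and a gamma chain, and the chains are encoded by separate genes, so the chains a cell transcribes limit which laminins it can assemble. The globular end of the alpha chain binds cell surface receptors such as integrins and dystroglycan, whereas the short arms of the chains join into a network that nidogens tie to collagen IV. Every smooth muscle cell is wrapped in such a membrane. The laminin chains described here are the 9 genes of the deposited table with the symbols Lama2, Lama3, Lama4, Lama5, Lamb1, Lamb2, Lamb3, Lamc1 and Lamc3, out of 21649 genes in all. Each was found in the table and passed the filter on low values (10 or more in 2 or more libraries), as did 18097 genes.

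RNA was sequenced from sorted mouse cells, labelled non-vascular smooth muscle cells, of lung (2 libraries), intestine (3 libraries) and bladder (3 libraries), to compare this cell type between organs. All mice of the 3 groups carried Cspg4-Dre, Acta2-CreERT and R26-GFP and received intraperitoneal tamoxifen on 3 days, each 10 g of body weight being given 0.75 mg. Acta2, which drives the tamoxifen-activated Cre, encodes smooth muscle actin, and Cspg4, which drives the Dre recombinase, encodes the NG2 proteoglycan of pericytes. The labels give neither the age and sex of the mice nor how many mice a library holds, so p-values measure the spread between libraries, which may be technical. In bulk RNA of this kind fewer cells of a type and less RNA per cell cannot be told apart.

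The libraries held 9.722 to 13.619 M reads, reconstructed from the spacing of the values, with the lowest depths in bladder. A value is a normalized read count, and 3 reads corresponded to 2.47 to 3.81 of it, a floor that covers counting error only. The smooth muscle list (10 genes, among them Acta2, Myh11 and Des) was read in every library. It held 3365 to 3571 ppm of the summed values in lung, 3114 to 3353 ppm in intestine and 1739 to 2119 ppm in bladder. Of these genes 6 were higher and 0 lower in lung than in bladder. In intestine against bladder 6 were higher and 2 lower, and in lung against intestine 2 were higher and 0 lower. Myh11 was at 10795 and 10378 in lung, 11371 to 12454 in intestine and 4423 to 6099 in bladder. Actg2 was at 2160 and 2266 in lung, 2125 to 2335 in intestine and 2412 to 2875 in bladder. Fibroblast markers were also read throughout, and none of these 10 genes was at 0 in any tissue. Their sum was 2833 to 3256 ppm in lung, 3748 to 4002 ppm in intestine and 5112 to 5632 ppm in bladder. All 10 were lower in lung than in bladder, 6 were lower in lung than in intestine, and all 10 were lower in intestine than in bladder, with none higher in any of these pairs. Over all genes tested 19.2% were higher and 21.8% lower in lung than in bladder. These shares were 15.9% and 23.6% for lung against intestine, and 28.7% and 23.3% for intestine against bladder.

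Lung and intestine libraries held far more Lama5 RNA than bladder libraries, 6.28 times as much in lung and 8.29 times as much in intestine. Most other abundant chains were lower: Lama2, Lama4, Lamb1 and Lamc1 stood 2.46 to 4.71 times lower in lung than in bladder. In lung against bladder 2 of the 9 chains were higher (Lama5 and Lamc3), 6 were lower and 1 (Lama3) did not pass the test, and Lamb2 was no longer among the lower with the deposited scaling undone or after quantile normalization. Among all genes tested 19.2% were higher and 21.8% were lower in that pair. The median log2 difference was -1.30 over the chains and 0.00 over all genes. In lung against intestine 0 chains were higher and 5 were lower, against 15.9% and 23.6% of all genes, and the medians were -0.40 and -0.04. At an unadjusted p under 0.05 in limma, 1 chain (Lamc3) was higher and 6 were lower in that pair. The shares of all genes are at the adjusted threshold, so they give no background for this looser count. In intestine against bladder 2 chains were higher (Lama3 and Lama5) and 5 were lower, against 28.7% and 23.3% of all genes, and the medians were -0.22 and 0.06. In that pair quantile normalization ended the call of Lama3 and turned Lamb2 to higher. Higher and lower here mean a Benjamini-Hochberg adjusted p under 0.05 in limma, adjusted over all genes tested. In limma's F test 8 of the 9 chains, all but Lama3, differed among the 3 tissues, and 62.9% of all genes did. The 3 pairs share libraries, so their results are not independent of each other.

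**Figure D1:**
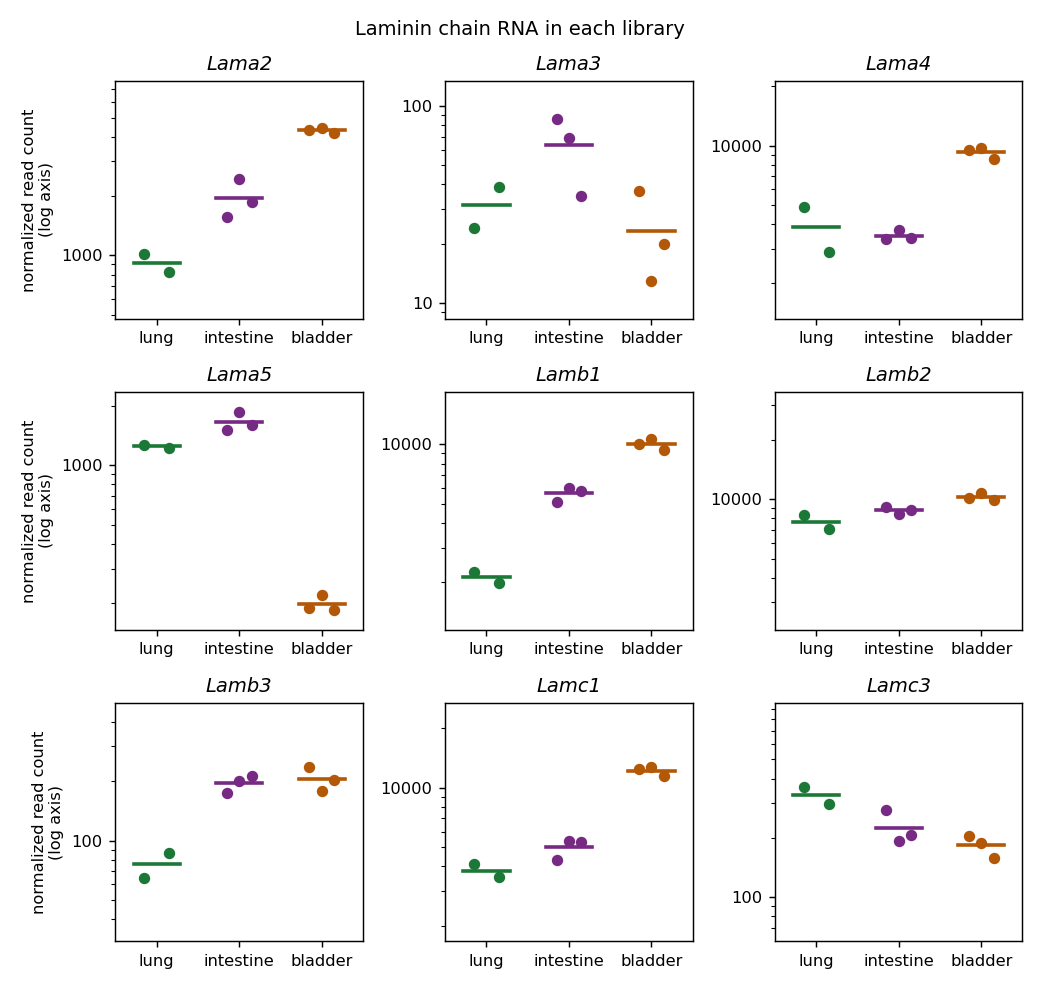
Normalized read count of each of the 9 laminin chains in each library (points, log axis) with the mean of the tissue (bar), for lung, intestine and bladder. Lama5 lies at 1226 to 1269 in lung and 1504 to 1864 in intestine, all above the bladder libraries at 185 to 220, whereas Lama2, Lamb1 and Lamc1 are highest in bladder.

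Sequence immediately upstream of 3 chains is printed because these genes had opposite patterns: Lama5 was low in bladder, and Lama2 and Lamb1 were high there. The 250 bases before the transcript start come from RefSeq on build GRCm38.p6, which is not the build of the deposited table, and read 5′ to 3′ on the strand of the gene. Capitals mark GC boxes (GGGCGG on either strand) in Lama5 and Lamb1, and the CArG box, the element that serum response factor binds, in Lama2. The windows are chr2:180225860-180226109, minus strand, for Lama5, chr10:27616943-27617192, minus strand, for Lama2, and chr12:31265043-31265292, plus strand, for Lamb1.
Lama5: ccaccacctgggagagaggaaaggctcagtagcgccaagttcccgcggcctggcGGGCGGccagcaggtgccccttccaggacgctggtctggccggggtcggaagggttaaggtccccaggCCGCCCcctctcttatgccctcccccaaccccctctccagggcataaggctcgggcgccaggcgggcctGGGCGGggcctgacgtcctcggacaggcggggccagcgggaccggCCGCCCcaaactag
Lama2: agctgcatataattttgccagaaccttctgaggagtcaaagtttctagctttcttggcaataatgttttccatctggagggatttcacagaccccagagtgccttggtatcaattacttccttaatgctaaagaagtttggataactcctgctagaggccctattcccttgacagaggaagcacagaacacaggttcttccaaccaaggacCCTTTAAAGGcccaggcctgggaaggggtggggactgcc
Lamb1: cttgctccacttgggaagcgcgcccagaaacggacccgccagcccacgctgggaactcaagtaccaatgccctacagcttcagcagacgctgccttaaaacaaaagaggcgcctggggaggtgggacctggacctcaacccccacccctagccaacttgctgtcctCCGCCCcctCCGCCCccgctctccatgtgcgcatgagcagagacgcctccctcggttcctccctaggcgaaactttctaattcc

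The Lama5 window is 72.4% G and C with 19 CG dinucleotides and holds 4 GC boxes, a number that 4.09% of 32851 mouse promoter windows of the same length reach or pass. The Lama2 window is 47.2% G and C, with 0 CG dinucleotides and 0 GC boxes, and it holds 1 CArG box, which 1.47% of the windows have. The Lamb1 window is 62.0% G and C with 14 CG dinucleotides and 2 GC boxes. A median window is 52.4% G and C with 6 CG dinucleotides, and 32.7% of the windows hold a GC box. A TATA element (TATAAA, in 12.4% of the windows) and an AP-1 element (TGACTCA, in 4.46%) were searched on both strands as well, and neither stands in these 3 windows. The motifs do not overlap each other in the printed windows, and a match is a description of the letters, not of a bound site.

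Among the alpha chains Lama5 set bladder apart most widely. Lama5 (chr2:179818166-179867652, build mm39) encodes an alpha chain that is widespread in adult basement membranes of epithelia, vessels and smooth muscle. Its values were 1269 and 1226 in lung, 1504, 1864 and 1593 in intestine, and 190, 220 and 185 in bladder. Every bladder library lay far below every library of the other organs, and the lung libraries lay below the intestine libraries. The log2 difference, here and below on the scale of log2(value + 1), was 2.65 (SE 0.13, limma adjusted p = 7.77e-07) for lung minus bladder. It was 3.05 (SE 0.11, limma adjusted p = 1.84e-07) for intestine minus bladder. With each of the 8 libraries left out in turn these stayed within 2.603 to 2.73 and 2.96 to 3.13. Lung was lower than intestine by a log2 difference of -0.40 (SE 0.13, limma adjusted p = 0.0307), a call that was lost when any 1 of 4 libraries was left out, with adjusted p up to 0.101. These libraries were lung 1, lung 2, intestine 2 and intestine 3. Most mural cell markers moved in the same direction as Lama5. Of 9 genes for vascular smooth muscle and pericytes, 7 were higher and 0 lower in lung than in bladder. In intestine against bladder 7 were higher and 1 lower. The non-vascular label would leave such cells out. Cspg4 itself, one of the 7, was at 4757 and 4045 in lung, 4370, 4617 and 4220 in intestine, and 417, 387 and 433 in bladder. The sum of the list was 2378 to 2705 ppm in lung, 2482 to 2584 ppm in intestine and 1002 to 1039 ppm in bladder, with none of the 9 at 0. Blood endothelium markers summed to 714 to 796.3 ppm in lung, 1219 to 1421 ppm in intestine and 423.1 to 565.9 ppm in bladder. Of these 10 genes 6 were higher and 2 lower in lung than in bladder. In intestine against bladder 9 were higher and 1 lower. Over all genes 19.2% were higher and 21.8% lower in lung than in bladder, and 28.7% and 23.3% in intestine than in bladder. The part of either marker list in the Lama5 difference was not tested.

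Lama2 (chr10:26856032-27495754) encodes the alpha chain that dominates the basement membrane of skeletal muscle and peripheral nerve, and its loss in humans causes a congenital muscular dystrophy. Values were 1015 and 826 in lung, 1558, 2435 and 1876 in intestine, and 4300, 4433 and 4196 in bladder. The 3 organs formed separate steps with no overlap, lung lowest and bladder highest. Mean values were 920.5 ± 134 in lung, 1956 ± 444 in intestine and 4309.7 ± 119 in bladder (SD, n = 2, 3 and 3). The log2 difference was -2.23 (SE 0.16, limma adjusted p = 9.34e-06) for lung minus bladder, -1.07 (SE 0.16, 0.000757) for lung minus intestine and -1.16 (SE 0.15, 0.000141) for intestine minus bladder. All 3 differences passed with any library left out.

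Lama4 (chr10:38841511-38986184) encodes an alpha chain of vessel and muscle basement membranes with a truncated short arm. Its values were 4865 and 2899 in lung, 3366, 3739 and 3394 in intestine, and 9535, 9714 and 8514 in bladder. Bladder stood above both other organs, and the lung libraries lay on either side of the intestine libraries. Log2 differences were -1.30 (SE 0.18, limma adjusted p = 0.000353) for lung minus bladder and -1.40 (SE 0.16, limma adjusted p = 6.67e-05) for intestine minus bladder. Lung minus intestine was 0.10 with a 95% interval of -0.29 to 0.50 (limma adjusted p = 0.674), and its sign depended on the lung library. Without lung 1 it was -0.27 (limma adjusted p = 0.041) and without lung 2 it was 0.48 (limma adjusted p = 0.00431). Of the 9 chains, 7 were higher in lung 1 than in lung 2, and Lama4 had the widest gap.

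Lama3, on chromosome 18, encodes the alpha chain of the laminin that anchors stratified epithelium, and was the least abundant chain in each organ. Values were 24 and 39 in lung, 86, 69 and 35 in intestine, and 37, 13 and 20 in bladder. Libraries of all 3 organs overlapped. The log2 difference for intestine minus bladder was 1.43 (SE 0.48, limma adjusted p = 0.0328), but the F test did not pass (adjusted p = 0.0669) and the pair was lost without any 1 of 4 libraries, with adjusted p up to 0.123. These were intestine 1, intestine 2, bladder 2 and bladder 3. After quantile normalization the difference was 0.59 (limma adjusted p = 0.318). Lung minus bladder was 0.50 (95% interval -0.72 to 1.72) and lung minus intestine was -0.93 (95% interval -2.15 to 0.29), and neither passed. Epithelial markers summed to 68.24 to 109.9 ppm in lung, 1413 to 1506 ppm in intestine and 342.7 to 547.4 ppm in bladder, with 9 of 10 higher in intestine than in bladder. None of the 10 was at 0 in all libraries of an organ, and Esrp1 was at 2 and 0 in lung. The part of these markers in the Lama3 values was not tested.

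**Figure D2:**
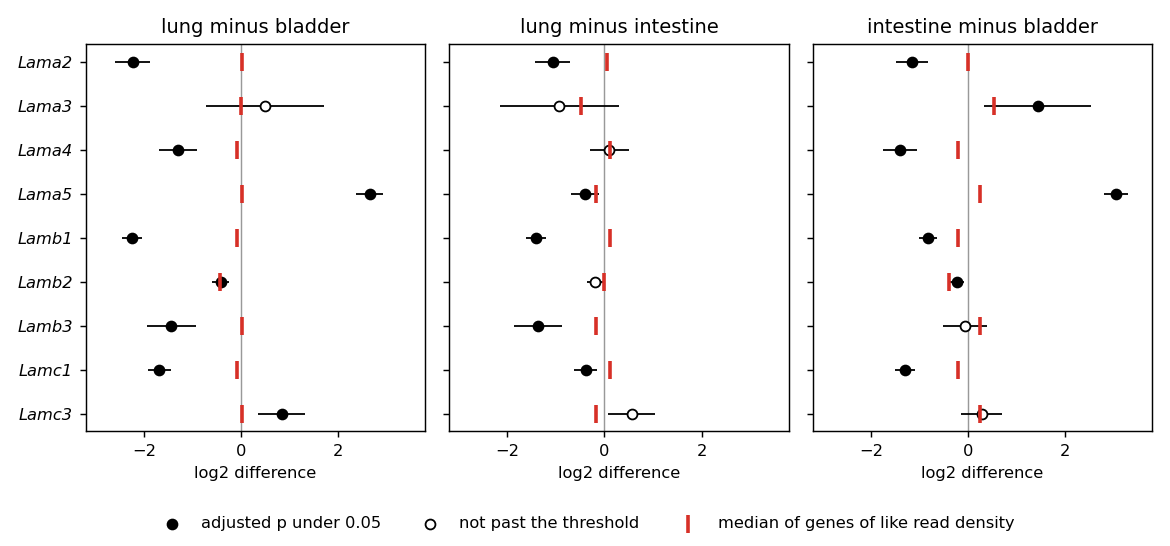
Log2 difference of each chain (circles, with 95% intervals) for lung minus bladder, lung minus intestine and intestine minus bladder. Filled circles passed the test and red ticks mark the median of genes with a like read density, from which Lama5 (2.65 for lung minus bladder) and Lamb1 (-2.24) stand off while Lamb2 (-0.42) does not.

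Of the beta chains Lamb1 followed the order of Lama2, and Lamb2 varied little. Lamb1 (chr12:31315233-31379643) encodes the beta chain found in most laminins from the embryo on. Values were 2258 and 1991 in lung, 5081, 6027 and 5832 in intestine, and 10081, 10635 and 9329 in bladder. No libraries overlapped between organs, and the lung libraries were the lowest. Log2 differences were -2.24 (SE 0.09, limma adjusted p = 3.73e-07) for lung minus bladder, -1.41 (SE 0.09, 3.31e-06) for lung minus intestine and -0.83 (SE 0.08, 3.05e-05) for intestine minus bladder. All 3 passed with any library left out, and the last was -0.43 with the deposited scaling undone and -0.40 after quantile normalization.

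Lamb2 (chr9:108356935-108367729) encodes the beta chain that is concentrated at the neuromuscular junction, in the kidney glomerulus and in vessel walls. It was the most abundant chain per kb of exon in all 3 organs. Values were 8335 and 7069 in lung, 9146, 8426 and 8819 in intestine, and 10103, 10771 and 9939 in bladder. The organs did not overlap, and the means of 7702 ± 895 in lung, 8797 ± 361 in intestine and 10271 ± 441 in bladder lay close together. The log2 difference was -0.42 (SE 0.07, limma adjusted p = 0.00173) for lung minus bladder and -0.22 (SE 0.07, limma adjusted p = 0.0186) for intestine minus bladder. Lung minus intestine was -0.20 (95% interval -0.36 to -0.03, limma adjusted p = 0.0635). Lamb2 had 1.5 reads per nt of exon, and the 338 genes with at least 1 read per nt had medians of -0.42 for lung minus bladder and -0.40 for intestine minus bladder. By library Lamb2 had 1.34 to 1.67 reads per nt in lung, 1.51 to 1.63 in intestine and 1.31 to 1.49 in bladder. For lung minus bladder the log2 differences of the 338 genes had an SD of 0.78. This SD was 1.25 for genes with 0.1 to 0.3 reads per nt. Whether differences are narrowed at high read density was not tested. The Lamb2 differences from bladder were no larger than the shift of equally dense genes. With the deposited scaling undone they were 0.0925 and 0.17, and after quantile normalization they were 0.10 and 0.24, the second of which passed as higher in intestine (limma adjusted p = 0.00165). Intestine minus bladder also lost its call with equal totals (limma adjusted p = 0.0819) and without the trend (limma adjusted p = 0.109).

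Lamb3 (chr1:192890007-193026186) encodes the beta partner of the Lama3 chain in epithelial laminin. Values were 65 and 87 in lung, 175, 201 and 213 in intestine, and 237, 178 and 204 in bladder. Both lung libraries lay below all others, and intestine and bladder overlapped. The log2 difference was -1.43 (SE 0.22, limma adjusted p = 0.00081) for lung minus bladder and -1.37 (SE 0.22, limma adjusted p = 0.00107) for lung minus intestine. Intestine minus bladder was -0.07 (95% interval -0.52 to 0.38, limma adjusted p = 0.799), and -0.59 after quantile normalization (limma adjusted p = 0.0266). The Lamb3 span also holds Hsd11b1 and G0s2 on the opposite strand, and the library kit does not mark strand, so reads shared with them could not be told apart. Hsd11b1 was at 939 and 1321 in lung, 1180 to 1339 in intestine and 2612 to 2876 in bladder. Basal and urothelial markers (8 genes) summed to 18.22 to 34.92 ppm in lung, 13.97 to 15.81 ppm in intestine and 553.3 to 771.2 ppm in bladder. Of them 7 were lower in lung and 8 were lower in intestine than in bladder. Krt5 was at 0 in all lung and intestine libraries and Upk2 in all lung libraries, while others of the list were read there, such as Krt14 at 39 and 117 in lung, 0 to 9 in intestine and 61 to 75 in bladder, and Upk1b at 116 and 249 in lung, 107 to 127 in intestine and 1569 to 2232 in bladder. The sum of the general epithelial markers given for Lama3 was lowest in lung, as Lamb3 was. Of these 10 genes 9 were lower and 1 higher in lung than in bladder, and 10 were lower in lung than in intestine. Over all genes 19.2% were higher and 21.8% lower in lung than in bladder. The share lower was 23.6% for lung against intestine and 23.3% for intestine against bladder. The part of either marker list in the Lamb3 values was not tested.

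The gamma chain Lamc1 (chr1:153094668-153208532), the gamma subunit of most laminins, was highest in bladder. Its values were 4094 and 3517 in lung, 4319, 5376 and 5300 in intestine, and 12448, 12783 and 11460 in bladder. Each organ's libraries were apart from the others, with lung and intestine near each other. Log2 differences were -1.69 (SE 0.11, limma adjusted p = 3.6e-06) for lung minus bladder and -1.30 (SE 0.09, limma adjusted p = 4.63e-06) for intestine minus bladder. Lung minus intestine was -0.39 (SE 0.11, limma adjusted p = 0.016) and did not pass when lung 2, intestine 2 or intestine 3 was left out, with adjusted p up to 0.116. A processed pseudogene on the opposite strand within the Lamc1 span, Gm8818, was at 127 and 135 in lung, 62 to 79 in intestine and 325 to 603 in bladder.

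Lamc3 (chr2:31777303-31836551) encodes a gamma chain of restricted distribution, known from nerve and from the pial membrane of the brain. It was one of the 2 chains higher in lung than in bladder. Values were 364 and 297 in lung, 277, 192 and 208 in intestine, and 205, 189 and 159 in bladder. Both lung libraries lay above all others, whereas intestine and bladder overlapped. The log2 difference for lung minus bladder was 0.84 (SE 0.21, limma adjusted p = 0.0115), and 0.69 without lung 1 (limma adjusted p = 0.0577). Lung minus intestine was 0.56 (95% interval 0.08 to 1.04, limma adjusted p = 0.0643) and intestine minus bladder was 0.28 (95% interval -0.15 to 0.71, limma adjusted p = 0.248). Lung minus intestine passed under each of the 3 other scalings, with log2 differences of 0.61 to 0.93. The median of all genes in this pair was -0.04 in the main fit and moved up under each. It was 0.07 with the scaling undone, which leaves reads unadjusted for depth, 0.01 with equal totals and 0.18 with quantile normalization.

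Lama2, Lama4, Lamb1 and Lamc1 stood higher in bladder together with the fibroblast markers given above, whose median log2 difference was -0.93 for lung minus bladder and -0.57 for intestine minus bladder. Genes with at least 1 read per nt had medians of -0.42 and -0.40 in these pairs. The markers were not set against genes of like read density. The part of fibroblast RNA in the differences of these 4 chains was not tested. Undoing the deposited scaling leaves reads unadjusted for depth, which was lowest in bladder. The median of all genes then moved to 0.48 for lung minus bladder and 0.45 for intestine minus bladder. With the scaling undone the lung minus bladder difference of Lama2 was -1.72, of Lama4 -0.79, of Lamb1 -1.73 and of Lamc1 -1.17. All 4 still passed in limma. Lama5 was at 3.16 under the same change.

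Levels of different chains can be compared per length, and the order below is of mean value per kb of exon. In lung the order was Lamb2 (1266), Lamc1 (460), Lama4 (322), Lamb1 (214), Lama5 (109), Lama2 (56.3), Lamc3 (54.3), Lamb3 (11.5) and Lama3 (2.93). Lama2 and Lamc3 overlapped between the lung libraries, and the other neighbours did not. In intestine the order was Lamb2 (1446), Lamc1 (604), Lamb1 (569), Lama4 (290), Lama5 (145), Lama2 (120), Lamc3 (37.0), Lamb3 (29.7) and Lama3 (5.89). Here Lamc1 and Lamb1, Lama5 and Lama2, and Lamc3 and Lamb3 overlapped. In bladder the order was Lamb2 (1689), Lamc1 (1479), Lamb1 (1010), Lama4 (767), Lama2 (264), Lamb3 (31.2), Lamc3 (30.3), Lama5 (17.4) and Lama3 (2.17), and of the neighbours Lamb3 and Lamc3 overlapped. Lama5 ranked 5 of 9 in lung and in intestine and 8 of 9 in bladder. The order depends on the exon length used. With the longest transcript, an alternative chosen after seeing the data, Lama4 passed Lamc1 in lung (642 and 499 per kb), Lamb1 passed Lamc1 in intestine (976 and 656) and in bladder (1732 and 1605), and in intestine Lama2 passed Lama5 (203 and 145) and Lamb3 passed Lamc3 (40.3 and 38.4). Lama5 then ranked 6 in intestine. Ranked per kb among 17670 genes, Lamb2 stood at percentile 99.5 in lung, 99.7 in intestine and 99.5 in bladder, and Lamc1 at 89.4, 93.9 and 99.0 in the same organs. Lama5 stood at percentile 61.3 in lung, 65.5 in intestine and 32.5 in bladder.

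The share of each chain within its class was compared within libraries, which takes out the scaling between them. Lama1, an alpha chain best known from the early embryo, was added to the alpha class. Lama5 made up 22.8 ± 5.26% of the alpha chains per kb in lung, 24.8 ± 0.203% in intestine and 1.64 ± 0.099% in bladder. Lama4 was the main alpha chain in each organ, with 64.2 ± 7.01% in lung, 49.8 ± 2.32% in intestine and 72.3 ± 1.10% in bladder. Lama2 held 11.6 ± 1.28% in lung, 20.3 ± 2.51% in intestine and 24.9 ± 0.832% in bladder. With this exon length its share differed between all 3 organs without overlap. With the longest transcript its share in intestine (18.39 to 23.73%) overlapped that in bladder (21.81 to 23.28%). Among beta chains Lamb1 held 14.4 ± 0.303% in lung, 27.8 ± 2.52% in intestine and 37.0 ± 0.758% in bladder, and nearly all of the rest was Lamb2. Of Lamc1 and Lamc3 together, Lamc3 held 10.5 ± 0.343% in lung, 5.90 ± 1.84% in intestine and 2.00 ± 0.172% in bladder, with no overlap between organs, and the rest was Lamc1. Errors of the shares are SDs over 2, 3 and 3 libraries, and no test was run on them. They depend on the exon length used: with the longest transcript the Lama5 share was 13.3% in lung, 15.2% in intestine and 0.867% in bladder.

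**Figure D3:**
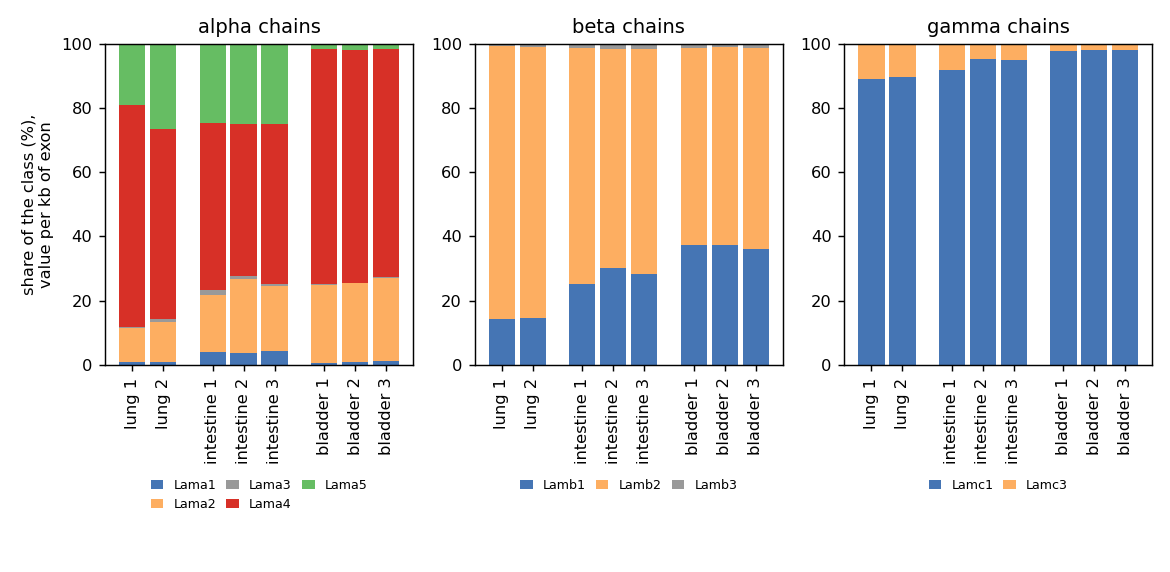
Share of each chain among the alpha chains, the beta chains, and Lamc1 and Lamc3 (stacked bars, percent of the summed value per kb of exon) in every library of lung, intestine and bladder. Lama5 (green) holds 19.1 to 26.5% of the alpha class in lung and intestine libraries and 1.55 to 1.74% in bladder libraries.

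Summed over these sets at the deposited scaling, each chain type stood below bladder in lung and intestine. The alpha chains summed to 494 ± 125 per kb in lung, 584 ± 61.7 in intestine and 1060 ± 60.1 in bladder. Beta chains summed to 1492 ± 164 in lung, 2045 ± 23.5 in intestine and 2730 ± 133 in bladder, and Lamc1 and Lamc3 to 514 ± 57.1 in lung, 641 ± 63.9 in intestine and 1509 ± 86.4 in bladder. For each set every bladder library lay above every library of the other organs, and no test was run on these sums. Unlike the shares, the sums depend on the scaling between libraries, and the other scalings were not applied to them. Lamb2, the main beta chain, was no longer lower than bladder with the scaling undone or after quantile normalization.

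Lama1 itself was low, at 40 and 34 in lung, 212, 241 and 228 in intestine, and 57, 108 and 117 in bladder. Intestine was the organ with most Lama1, and lung the one with least. Its log2 difference was -2.59 (SE 0.33, limma adjusted p = 0.000227) for lung minus intestine and 1.33 (SE 0.29, limma adjusted p = 0.00395) for intestine minus bladder.

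For the 4 chains with the smallest F test p, the genes with the most similar profile over the 8 libraries were sought among genes with a mean of at least 100. Likeness was the root mean square difference of log2 values, each centred on its own mean. Nearest to Lama5 were Atp1b2 (0.14), S1pr3 (0.14) and Fxyd7 (0.22), and 5 of 11686 genes lay within 0.25 of it. The values of Atp1b2 averaged 2876 in lung, 3841 in intestine and 477 in bladder. Nearest to Lamb1 were Zfp521 (0.08), Add3 (0.09) and Fam102a (0.11). Lamc1 was most like Lpar1 (0.11), Plscr4 (0.11) and Slc44a1 (0.12), and Lama2 was most like Scn7a (0.12), Zfp521 (0.14) and Col14a1 (0.14).

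The receptors that bind laminins also differed between the organs, and Itga7 and Bcam stood on the same side as Lama5. Itga7 encodes the alpha subunit of the main laminin-binding integrin of muscle. Its values were 4003 and 2928 in lung, 5660, 5111 and 5101 in intestine, and 393, 403 and 460 in bladder. The bladder libraries lay well below all others. The log2 difference was 3.03 (SE 0.13, limma adjusted p = 5.07e-07) for lung minus bladder, -0.63 (SE 0.13, 0.00448) for lung minus intestine and 3.66 (SE 0.12, 1.12e-07) for intestine minus bladder. Itga3, another laminin-binding alpha subunit, was at 2196 and 1437 in lung, 1543 to 1655 in intestine and 287 to 375 in bladder, with log2 differences from bladder of 2.39 in lung and 2.25 in intestine. Bcam, a cell surface receptor for laminins that hold the Lama5 chain, was at 3806 and 3952 in lung, 3877 to 4235 in intestine and 1270 to 1525 in bladder. Its log2 differences were 1.44 for lung minus bladder and 1.52 for intestine minus bladder, with limma adjusted p of 3.58e-06 and 8.61e-07. Itga6 and Itgb4, the subunits of the hemidesmosome integrin of epithelia, were higher in intestine than in bladder, by log2 differences of 2.96 and 2.72, and lower in lung than in intestine, by -2.46 and -2.50. Itgb4 was at 181 and 247 in lung, 1116 to 1288 in intestine and 125 to 247 in bladder. They stood high together with the epithelial markers given above, whose part in this was not tested.

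**Figure D4:**
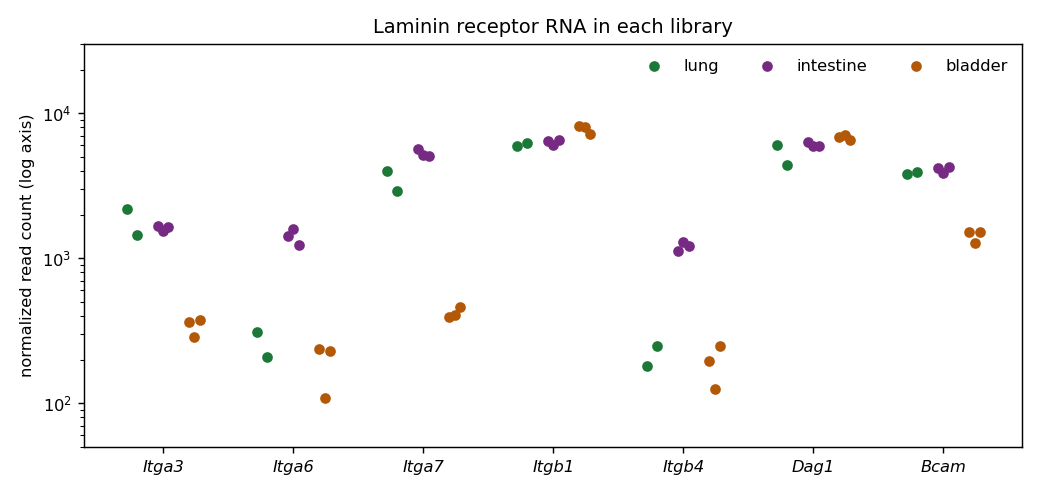
Normalized read count of 7 laminin receptor genes in each library of lung, intestine and bladder (points, log axis). Itga3, Itga7 and Bcam are lowest in the bladder libraries, Itga6 and Itgb4 are highest in the intestine libraries, and Itgb1 and Dag1 vary little.

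Itgb1, the beta subunit shared by most laminin-binding integrins, was at 5937 and 6186 in lung, 6025 to 6582 in intestine and 7138 to 8105 in bladder. Its log2 differences from bladder were -0.36 in lung and -0.29 in intestine, within the shift of genes of like read density. Dag1, which encodes dystroglycan, was at 6074 and 4365 in lung, 5908 to 6280 in intestine and 6584 to 7088 in bladder. It was lower in lung than in bladder by a log2 difference of -0.41 (SE 0.12, limma adjusted p = 0.0182), and the 95% interval for intestine minus bladder was -0.41 to 0.05. Among the 5 laminin-binding integrin subunits 2 were higher and 1 lower in lung than in bladder, 0 were higher and 3 lower in lung than in intestine, and 4 were higher and 1 lower in intestine than in bladder. Of the 5 other receptors 2 were higher and 2 lower in lung than in bladder, 1 was higher and 0 lower in lung than in intestine, and 2 were higher and 1 lower in intestine than in bladder. For lung minus intestine the counts of 0 were also 0 at an unadjusted p under 0.05 in limma. At the adjusted threshold 19.2% of all genes tested were higher and 21.8% lower in lung than in bladder. The same shares were 15.9% and 23.6% for lung against intestine, and 28.7% and 23.3% for intestine against bladder.

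Among 18 genes of other basement membrane components 6 were higher and 10 lower in lung than in bladder, 5 were higher and 5 lower in lung than in intestine, and 5 were higher and 10 lower in intestine than in bladder. Their median log2 differences were -0.30, 0.04 and -0.52 in the same order of pairs. The shares of all genes higher and lower were 19.2% and 21.8%, 15.9% and 23.6%, and 28.7% and 23.3% in that order. Nid1, the nidogen that ties laminin to collagen IV, averaged 4329 ± 127 in lung, 6467 ± 440 in intestine and 11066 ± 677 in bladder, the same order as Lamb1 and Lama2. Its log2 difference for lung minus bladder was -1.35 (SE 0.07, limma adjusted p = 1.53e-06). Collagen XV, encoded by Col15a1, averaged 1533 ± 331 in lung, 942 ± 174 in intestine and 4956 ± 374 in bladder. Npnt, which encodes nephronectin, a basement membrane ligand of another integrin, was higher in lung and intestine than in bladder, with 4781 ± 1085 in lung, 1305 ± 88.5 in intestine and 250 ± 37.0 in bladder. Tinagl1, a matricellular protein of basement membranes, averaged 3073 ± 94.8 in lung, 3376 ± 177 in intestine and 1018 ± 91.1 in bladder. Its log2 differences from bladder were 1.60 in lung and 1.73 in intestine, and both passed in limma. The main collagen IV chain Col4a1 averaged 9677 ± 564 in lung, 9430 ± 258 in intestine and 11874 ± 521 in bladder, log2 differences from bladder of -0.30 in lung and -0.33 in intestine that lie within the shift of genes of its read density.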

How the data were processed

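RNA of 8 libraries (2 lung, 3 intestine, 3 bladder) was prepared with the SMART-Seq v4 kit from at most 10 ng of total RNA, per the labels' protocols. The deposited values are treated as a score: read counts scaled by the authors with a constant per library and rounded to whole numbers, as their spacing shows. The build was mm39, and DESeq2 1.36.0, featureCounts 2.0.4, Picard 3.0.0, STAR 2.7.10a and Trimmomatic 0.39 were used, per the submitters' processing notes. What each tool did, which annotation release and strand setting it had, and which filters applied is not given in the sources used here. Gene coordinates are those of the deposited table.

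The value of 1 read (0.822 to 1.27) was estimated from the spacing and gave the depths. Genes of value 10 or more in at least 2 libraries (18097, with 3552 left out) were fitted together with limma 3.58.1 in R 4.3.3 on log2(value + 1), a mean per tissue and an intensity trend; p-values were adjusted over all of them by Benjamini-Hochberg. The script was tested on simulated data. GENCODE M21 gave exon lengths for 96.8% of the genes, and RefSeq gave the promoters. The 9 chains, the lists of partner and marker genes and the tests were chosen with earlier results of these data known. Named are all chains, up to 3 genes per partner list and pair with the smallest adjusted p under 0.05 and a mean of at least 50 in the higher tissue, and the genes most like 4 chains. Some genes that met this rule are not reported here, and Col4a1 and the overlapping genes were named after their values were seen. Alternatives were another pseudocount, no filter, 3 other scalings, no trend, only 2 tissues, a replicate block, and each library left out. The other scalings were equal totals, quantile normalization, and the deposited scaling undone, which leaves reads unadjusted for depth.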

Additional observations from a re-analysis of the deposited data

How the results depend on the processing

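For lung minus bladder, 2 chains were higher under every other scaling, filter, pseudocount and fit tried, and 6 were lower except for 5 with the scaling undone and with quantile normalization. Leaving out 1 library gave 1 to 2 higher, the lowest without lung 1 (Lamc3 was lost), and 6 lower. For lung minus intestine, 1 chain was higher with the deposited scaling undone, with equal totals and with quantile normalization, in each case Lamc3, whose log2 difference was then 0.68, 0.61 and 0.93. The number lower was 3 with the scaling undone and 3 without the trend, where Lama5 and Lamc1 were lost. Leaving out 1 library gave 0 to 1 higher and 3 to 6 lower. For intestine minus bladder, leaving out 1 library gave 1 to 2 higher (Lama3 was lost) and 4 to 5 lower (Lamb2 was lost). In that pair 3 were higher and 4 lower with the scaling undone, and 4 were lower with equal totals and without the trend. Quantile normalization ended the call of Lama3 (0.59). Of all 18097 genes tested in that pair, 5185 were higher and 4210 lower in the main fit. These numbers were 8321 and 1928 with the scaling undone, and 5793 and 3580 with equal totals. They were 4161 and 5816 with quantile normalization, and 4941 and 3847 without the trend. Lama4 for lung minus intestine ranged over -0.27 to 0.48 with 1 library left out, the lowest without lung 1. Lamb2 was 0.0925 for lung minus bladder and 0.17 for intestine minus bladder with the scaling undone, and 0.10 and 0.24 with quantile normalization, the 0.24 past the threshold (limma adjusted p = 0.00165). For intestine minus bladder, Lamb3 was 0.33 with the scaling undone, 0.0245 with equal totals, -0.59 with quantile normalization (limma adjusted p = 0.0266, a call gained), and -0.17 to 0.0381 with 1 library left out (above 0 without intestine 1 or bladder 1), and Lamc3 was -0.22 with quantile normalization and 0.67 with the scaling undone (limma adjusted p = 0.0148, a call gained). With the scaling undone the values are reconstructed reads with no adjustment for depth. Depth was 12.671 to 13.619 M reads in lung, 12.025 to 13.186 M in intestine and 9.722 to 10.953 M in bladder. The cause of the other changes was not tested. Calls over all genes moved in the other pairs too. In lung against bladder 3466 were higher and 3952 lower in the main fit. With the scaling undone these were 7955 and 1897, and with quantile normalization 3343 and 3299. In lung against intestine the main fit gave 2882 higher and 4275 lower. With the scaling undone these were 3684 and 3554, and with quantile normalization 5172 and 3516. Over all single-chain values, those named here included, 10 changed sign. Of the rest 390 kept direction and side of the threshold, 23 lost their call and 9 gained one. The 390 include fits without a library of the tissue outside the pair, where the difference itself cannot change.

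The Lama5 share was 13.33% in lung, 15.16% in intestine and 0.867% in bladder with the longest transcript, and 22.35% in intestine and 1.43% in bladder with no division by length. The Lamb1 share was 21% in lung, 37.83% in intestine and 48.09% in bladder with the longest transcript, and 21.48%, 38.55% and 48.85% with no division by length. Same-numbered libraries did not deviate together over genes (r = -0.103 to 0.128). With 2 or 3 libraries a tissue these r depend on each other. They cannot show whether same-numbered libraries share a mouse, which the labels do not say. A replicate block gave 2 higher and 6 lower for lung minus bladder, 0 and 5 for lung minus intestine, and 2 and 5 for intestine minus bladder. Lama3, at 13 to 86, is the chain most limited by depth. With 2 or 3 libraries a tissue, single outlying libraries could not be tested for.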

Other observations

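Laminin also reaches the cytoskeleton through dystroglycan, whose sugars must be built by a chain of enzymes before it binds laminin. Of 14 such enzyme genes 13 were tested. Among these 2 were higher and 4 lower in lung than in bladder, and 3 higher and 1 lower in lung than in intestine. In intestine against bladder 2 were higher and 4 lower. The shares of all genes higher and lower were 19.2% and 21.8%, 15.9% and 23.6%, and 28.7% and 23.3% in the same order. Large2, which extends the laminin-binding sugar, averaged 4.00 ± 2.83 in lung, near the 3-read floor there (2.47 to 2.6), 391 ± 47.9 in intestine and 16.7 ± 5.86 in bladder. The epithelial markers, 68.24 to 109.9 ppm in lung, 1413 to 1506 ppm in intestine and 342.7 to 547.4 ppm in bladder, had the same order, and their part in the values was not tested. Pomk, a kinase of the same pathway, averaged 700 ± 98.3 in lung, 627 ± 32.6 in intestine and 1209 ± 57.2 in bladder.

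Inside the cell, 6 of 12 dystrophin complex genes were higher and 2 lower in lung than in bladder. In lung against intestine 6 were higher and 2 lower, and in intestine against bladder 5 were higher and 5 lower. The shares of all genes higher and lower were 19.2% and 21.8%, 15.9% and 23.6%, and 28.7% and 23.3% in the same order. Sgca, the gene of alpha-sarcoglycan, averaged 546.5 ± 68.6 in lung, 549 ± 60.7 in intestine and 61.3 ± 6.11 in bladder.

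The laminin-related netrins were split. Ntn4, a netrin that binds laminin and disrupts its network, averaged 4048.5 ± 319 in lung, 3749 ± 357 in intestine and 2182 ± 113 in bladder, and differed from bladder by log2 differences of 0.89 in lung and 0.78 in intestine that passed in limma. Of 5 netrin genes tested 2 were higher and 2 lower in lung than in bladder. In lung against intestine 1 was higher and 1 lower, and in intestine against bladder 2 were higher and 2 lower. The shares of all genes higher and lower were 19.2% and 21.8%, 15.9% and 23.6%, and 28.7% and 23.3% in the same order.

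Other marker lists were read as well. Lymphatic endothelium summed to 121.4 to 179.1 ppm in lung, 1101 to 1302 ppm in intestine and 502.8 to 707.3 ppm in bladder. Glia and Schwann markers summed to 19.65 to 27.54 ppm in lung, 141.7 to 190.7 ppm in intestine and 12.88 to 19.57 ppm in bladder, and neuron markers to 48.24 to 70.03, 242 to 266.9 and 63.46 to 72.77 ppm in the same organs. Striated muscle markers summed to 480.4 to 541.9 ppm in lung, 56.84 to 60.45 ppm in intestine and 103.9 to 158.6 ppm in bladder. Mesothelial markers summed to 44.39 to 83.16 ppm in lung, 104.1 to 127.3 ppm in intestine and 276.1 to 403.3 ppm in bladder. Leukocyte markers summed to 149.7 to 153.7 ppm in lung, 75.77 to 95.19 ppm in intestine and 205.7 to 333.2 ppm in bladder, and the 3 adipocyte genes of the table to at most 9.61 ppm in any library.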
